A study of Mus musculus with 12 samples.

Results

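The rosiglitazone response of NIH-3T3 fibroblasts carrying the E157D form of PPARG2 was taken as the 3 arrays titled MUT+Rosi against the 3 arrays titled MUT, 6 of the 12 arrays of the series. NIH-3T3 is an established line of mouse embryo fibroblasts. In all groups the cells carried a PPARγ2 transgene brought in by lentivirus and grew in high-glucose DMEM with serum and blasticidin, the drug that kills cells without a resistance marker. The E157D cells received either rosiglitazone at 20 µM for 24 h or an equal volume of its vehicle DMSO, and the 6 other arrays came from cells with the wild-type receptor treated in the same 2 ways. No group lacked a transgene, so an effect of the drug that needs no transduced receptor cannot be told apart from one that does. Replicates 1 to 3 of each group are described as independent experiments, and whether each had its own infection was not stated. A probe was a member if 3 or more of the 12 arrays detected it (p under 0.05), as 18921 of 45281 were, which gave 13006 features after 1 probe was kept for each gene.

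PPARγ is a nuclear receptor that pairs with RXR, sits on DNA at repeats of a short core motif, and switches genes on when a ligand enters its pocket. The γ2 isoform is the form of fat cells, where its targets store, bind and burn fatty acids. Rosiglitazone is a thiazolidinedione, a class of synthetic PPARγ ligands used against insulin resistance. The residue changed in E157D lies in the DNA-binding domain, where a glutamate is replaced by aspartate, an amino acid with the same charge and a shorter side chain. Fibroblasts of this line make collagen and other matrix proteins, and they can be turned towards fat cells when PPARγ is supplied.

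Of the 6 E157D arrays, each detected 17020 to 17924 probes, or 37.588% to 39.584%. Across the tested features the DMSO arrays correlated with each other at 0.9912 to 0.9935, the rosiglitazone arrays at 0.9905 to 0.9909, and arrays of different treatment at 0.9832 to 0.9887. No pair of arrays held identical values, and precision is limited by how few arrays there are. All 14 fibroblast markers on the list were measured. None of the 3 Pparg probes reached detection on any array (their lowest p was 0.12), so the amount of receptor was not measured and the genotype labels have no check here. Values below are normalised log2 intensities, and a change is the mean of the rosiglitazone arrays minus that of the DMSO arrays with the standard error of limma, n = 3 arrays a side.

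Promoters of 3 genes of fat storage and fat burning that rose are shown first, because a PPAR response element is 2 copies of the core motif AGGTCA in direct repeat with 1 base between them (AGGTCANAGGTCA, called DR1). The sequences are from RefSeq on GRCm38.p6, 250 bases before to 50 after the annotated start, 5′ to 3′ along the gene, and capitals mark a core motif on either strand. Plin2 coats lipid droplets (chr4:86670010-86670309, minus strand), Acadvl opens the mitochondrial burning of long fatty acids (chr11:70015379-70015678, minus strand), and Hadhb is a subunit of the mitochondrial trifunctional protein (chr5:30155003-30155302, plus strand).
Plin2: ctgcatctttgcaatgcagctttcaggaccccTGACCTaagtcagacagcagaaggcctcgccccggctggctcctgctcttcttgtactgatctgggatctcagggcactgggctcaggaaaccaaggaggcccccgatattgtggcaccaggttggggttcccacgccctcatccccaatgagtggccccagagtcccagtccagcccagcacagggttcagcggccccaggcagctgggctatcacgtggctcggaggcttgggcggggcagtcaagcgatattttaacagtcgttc
Acadvl: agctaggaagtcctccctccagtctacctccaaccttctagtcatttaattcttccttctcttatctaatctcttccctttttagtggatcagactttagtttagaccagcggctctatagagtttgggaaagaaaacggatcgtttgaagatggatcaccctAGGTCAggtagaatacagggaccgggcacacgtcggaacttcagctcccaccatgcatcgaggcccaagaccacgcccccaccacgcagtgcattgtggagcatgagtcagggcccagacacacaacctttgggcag
Hadhb: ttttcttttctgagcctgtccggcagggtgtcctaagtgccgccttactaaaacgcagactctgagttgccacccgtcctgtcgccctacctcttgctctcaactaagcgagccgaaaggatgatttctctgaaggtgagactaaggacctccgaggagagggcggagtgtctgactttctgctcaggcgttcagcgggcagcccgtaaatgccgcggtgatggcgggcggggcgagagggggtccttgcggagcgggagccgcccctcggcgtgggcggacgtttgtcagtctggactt
The Plin2 promoter held 1 core motif on the opposite strand, 218 bases before the start, and the Acadvl promoter held 1 on the gene's own strand, 87 bases before it. The Hadhb promoter held none. It shares 228 bases with the promoter of its partner subunit Hadha, which starts on the other strand of the same stretch, and both genes rose. The promoter table matched 201 of the 255 higher genes and 139 of the 186 lower genes. A DR1 was found in 0 of the 201 and 0 of the 139, where a gene counted if any of its promoters held one. It was in 2 of 7882 tested genes not called (0.0254%) and in 13 of all 27025 genes in the promoter table (0.0481%). With any base at the fourth place of each core motif (AGGNCANAGGNCA) it was again 0 and 0. That was against 18 of the 7882 (0.228%) and 122 of the 27025 (0.451%). At shares this low, a count of 0 in such small sets says little. The single core motif, which every DR1 also contains, was in a promoter of 14.4% of higher genes and 10.8% of lower genes. Its share was 14.4% among tested genes not called and 18.1% among all genes in the promoter table. These letters were searched only in this window, and no match there says nothing about binding elsewhere.

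Rosiglitazone raised 300 features and lowered 233 in E157D cells at a Benjamini-Hochberg adjusted p under 0.05 in limma, 533 of 13006 or 4.1% (2.31% higher and 1.79% lower). The gene list counts below are to be read beside these shares, and beside the 6230 of 13006 features with a positive change. The largest rises among named genes were those of Ephx2, an epoxide hydrolase, the hormone Fgf21, the peroxisomal thiolase Acaa1b, and the leukocyte genes Prg2 and Itgad. The largest falls were those of the acute phase protein Saa3, the proteoglycan Ogn and the integrin-like protein Itgbl1. In RNA from whole cultures, a change in the number of cells that hold a transcript and a change in its amount per cell cannot be told apart. Changes of 2-fold or more numbered 87 upwards and 37 downwards, and a further 132 and 119 lay between 1.5 and 2-fold. The median change was 0.78 among the higher features and -0.69 among the lower ones, against -0.01 over all tested features with most of them between -0.47 and 0.45 (the fifth percentile from either end). All 533 had rosiglitazone arrays that did not overlap the DMSO arrays, a separation that 11.9% of tested features showed upwards and 12.8% downwards. In 30 of the higher features the DMSO arrays, and in 6 of the lower ones the rosiglitazone arrays, were all below detection. A group of 11 of the higher features had been detected on E157D rosiglitazone arrays and on no others, and passed the detection filter only through them. The counts depended on single arrays, as the total was 300, 259 and 254 without E157D DMSO array 1, 2 or 3, and 243, 442 and 296 without E157D rosiglitazone array 1, 2 or 3. The split depended on the scaling, as 77.9% of 385 calls were higher ones with every array scaled to the same median over all its probes, against 56.3% here. That scaling, added after the data were seen, moved the median change of all features by 0.09.

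**Figure D1:**
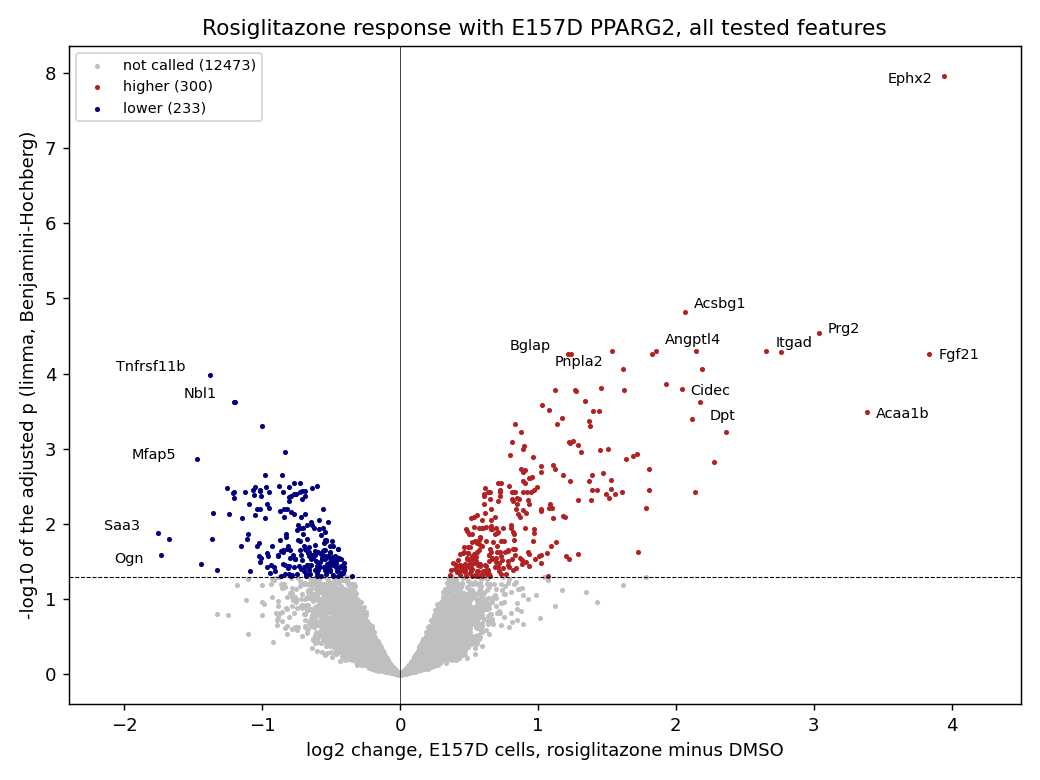
Each point is 1 of the 13006 tested features. The horizontal axis gives the log2 change in E157D cells (rosiglitazone minus DMSO, 3 arrays a side), the vertical axis the -log10 of the adjusted p of limma, and the dashed line lies at adjusted p 0.05. Ephx2 stands alone at the top right with a change of 3.94, and the falls reach no further than Saa3 at -1.75.

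Peroxisomes shorten very long and branched fatty acids and carry some detoxifying enzymes. Of 18 measured genes on the list of peroxisomal fatty acid oxidation 6 rose and 0 fell, with a median change of 0.19. Ephx2, the soluble epoxide hydrolase, which is found in peroxisomes and the cytosol and is not itself an enzyme of fatty acid oxidation, stood at 7.36, 7.56 and 7.53 on the DMSO arrays and at 11.48, 11.56 and 11.23 on the rosiglitazone arrays. The rosiglitazone arrays were all far above the DMSO arrays, and the change was 3.94 ± 0.13 (adjusted p = 1.09e-08), a 15.4-fold rise. Acaa1b, a peroxisomal thiolase that performs the last step of a round of oxidation, was at 5.40, 5.58 and 5.06 in DMSO, where 1 array detected it, and at 9.47, 7.79 and 8.93 with rosiglitazone. Its groups were well apart but its rosiglitazone arrays were spread, and it rose by 3.39 ± 0.36 (adjusted p = 0.000325). With other settings of the processing its change went as low as 1.57. Its near relative Acaa1a rose by 0.48 ± 0.11, and the 2 probes may share transcripts, so these values are uncertain.

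Ech1, an isomerase of unsaturated fatty acids, rose from 12.78, 13.02 and 12.92 to 13.69, 13.83 and 13.86, a change of 0.89 ± 0.12 with tight groups. Acox3, an oxidase of branched fatty acids, rose by 0.81 ± 0.10 and Mlycd, which removes the malonyl-CoA that blocks entry of fat into mitochondria, by 0.66 ± 0.15. The calls of Mlycd and Acaa1a ended when arrays were left out: for Mlycd E157D DMSO 1 or 2 or rosiglitazone 1 or 3 (adjusted p up to 0.11), and for Acaa1a any of the 6 (adjusted p up to 0.106). Between 4 and 5 of the list's members were called higher whichever array was left out. Of 20 genes that build peroxisomes or remove their peroxide 1 was called (5.0%, near the 4.1% of all features). Pex16, which brings membrane proteins to the growing peroxisome, rose by 0.82 ± 0.13. Pex11a, which divides peroxisomes, changed by 0.53 ± 0.20 (adjusted p = 0.17) and Cat, the catalase, by 0.49 ± 0.18 (adjusted p = 0.154), and neither was called.

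Mitochondria burn fatty acids in a repeating cycle of steps, and 9 of 22 measured genes of this path rose and 0 fell, with a median of 0.39. Acaa2, the thiolase of this cycle, stood at 10.26, 10.41 and 10.01 in DMSO and at 11.44, 11.27 and 11.86 with rosiglitazone, a change of 1.29 ± 0.16. Acadvl, the very long chain dehydrogenase whose promoter is shown above, went from 10.83, 10.88 and 11.03 to 11.79, 11.79 and 11.80, and the rosiglitazone arrays were almost level with each other (0.88 ± 0.10, adjusted p = 0.000602). A second kept probe of Acadvl rose by 0.66 ± 0.15. Acadl, the long chain dehydrogenase, rose by 0.90 ± 0.13, and Acadm, the medium chain one, changed by 0.10 ± 0.12 and was not called (adjusted p = 0.716). A dimmer second probe of Acadl changed by 0.51 and was not called.

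The trifunctional protein takes long chains through the remaining steps. Its subunit Hadhb went from 10.87 ± 0.20 (SD, n = 3) in DMSO, with the lowest array at 10.64, to 12.15, 11.77 and 11.50, a rise of 0.93 ± 0.15 with no overlap but with the rosiglitazone arrays spread. Hadha, the subunit that shares its promoter, rose by 0.78 ± 0.16. Electrons leave the dehydrogenases through the flavoprotein Etfb, which rose by 0.79 ± 0.12, and through its oxidoreductase Etfdh, which rose by 0.61 ± 0.10. A dimmer second probe of Etfdh changed by 0.11 and was not called, while that of Etfb rose by 0.87. Acot2, a thioesterase that frees long fatty acids in mitochondria, rose by 0.79 ± 0.18 and the isomerase Eci1 by 0.49 ± 0.10. A dimmer second probe of Acot2 changed by -0.19 and was not called. The calls of 3 of these ended when single E157D arrays were left out: Hadha with any array left out except rosiglitazone 3 (adjusted p up to 0.0926), Eci1 with any array left out except DMSO 3 (up to 0.0815), and Acot2 without DMSO 1 or 2 or rosiglitazone 1 or 3 (up to 0.113). The list had 6 to 8 members called higher whichever array was left out.

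The products of fatty acid burning enter the citric acid cycle and the respiratory chain. Of 18 genes of pyruvate entry and the cycle 4 rose and 0 fell, with a median of 0.18. Pcx, pyruvate carboxylase, which refills the cycle and also feeds the synthesis of glycerol and fat, stood at 6.70, 6.42 and 6.46 in DMSO and at 8.20, 7.74 and 8.02 with rosiglitazone, clearly apart, and rose by 1.46 ± 0.14 (adjusted p = 0.000154). Idh3a, a subunit of the isocitrate dehydrogenase of the cycle, rose by 0.87 ± 0.12. Mdh2 (0.56 ± 0.13) and Suclg1 (0.36 ± 0.09) rose too, but their calls ended whichever of the 6 arrays was left out (adjusted p up to 0.132 and 0.149), which left 2 of the 18 members called each time. In the respiratory chain and ATP synthase all 29 measured genes had a positive change, against 6230 of all 13006 features. The changes ran from 0.01 to 0.77 with a median of 0.23. Only 2 were called (6.9%, against 4.1% of all features). Cycs, cytochrome c, rose by 0.77 ± 0.19 and Cyc1, a subunit of complex III, by 0.47 ± 0.10. The call of Cycs ended with any array left out except rosiglitazone 2 (adjusted p up to 0.177) and that of Cyc1 without DMSO 1, 2 or 3 or rosiglitazone 1 (up to 0.0867).

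Among 10 genes of fasting and ketone bodies 3 rose and 1 fell. Fgf21, a hormone released in fasting, was below detection on all DMSO arrays (5.14, 5.41 and 5.18) and was at 9.48, 8.96 and 8.80 with rosiglitazone. Every rosiglitazone array detected it and it was at least 12.5-fold higher (adjusted p = 5.42e-05), where the bound sets DMSO at the lowest detected level. Ppargc1b, a coactivator that drives mitochondrial genes, rose by 0.97 ± 0.15. It was the 1 called gene of 12 PPAR receptors, partners and coregulators (8.33%, against 4.1% of all features). Pdk4, a kinase that keeps pyruvate out of the cycle and a known PPAR target, changed by 0.50 ± 0.14 and was not called (adjusted p = 0.0759). Oxct1, which burns ketone bodies, fell by 0.47 on the log2 scale (SE 0.10), a call that ended without DMSO 2 or 3 or rosiglitazone 1 or 3 (adjusted p up to 0.111). In glycolysis and hypoxia response 2 of 20 genes rose and 1 fell. Pfkl, the liver form of phosphofructokinase, rose from 11.26, 10.93 and 11.17 to 12.51, 12.49 and 12.37, a change of 1.34 ± 0.13 with groups far apart. Egln3, an oxygen-sensing hydroxylase, rose by 0.47 ± 0.11 and Adm, the peptide adrenomedullin, fell by 1.02 (SE 0.23). A dimmer second probe of Egln3 changed by -0.31 and was not called. The call of Egln3 ended whichever array was left out (adjusted p up to 0.142) and that of Adm without DMSO 2 or 3 or rosiglitazone 1 or 3 (up to 0.123).

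Lipid droplets hold the cell's fat, and 5 of 16 measured droplet genes rose and 1 fell. Plin2, the droplet coat of most cells, stood at 10.97, 10.95 and 10.69 in DMSO and at 13.14, 12.43 and 12.84 with rosiglitazone. The groups were well apart and the change was 1.93 ± 0.18 (adjusted p = 0.000137), a 3.81-fold rise. Cidec, which fuses droplets in fat cells, was below detection in DMSO (4.60, 4.59 and 4.67) and detected at 7.12, 6.36 and 6.50 with rosiglitazone, at least 2.35-fold higher. Pnpla2, the lipase that begins the breakdown of stored fat, went from 9.39, 9.37 and 9.34 to 11.08, 10.81 and 11.06, a rise of 1.62 ± 0.14. Plin4, a further coat protein, rose by 1.37 ± 0.15, and Fitm2, which helps droplets bud from the endoplasmic reticulum, by 1.02 ± 0.14. Dimmer probes of Fitm2 changed by 0.92 (called) and 0.44 (not called). Cav1, the main protein of caveolae, fell by 0.61 (SE 0.13), a call that ended with any array left out except rosiglitazone 2 (adjusted p up to 0.0849). The list's median was 0.23, or 0.13 with undetected groups set at the floor of detection, and 5 members were called higher whichever array was left out. Plin1, the coat of mature fat cells, was below detection on all 6 arrays.

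**Figure D2:**
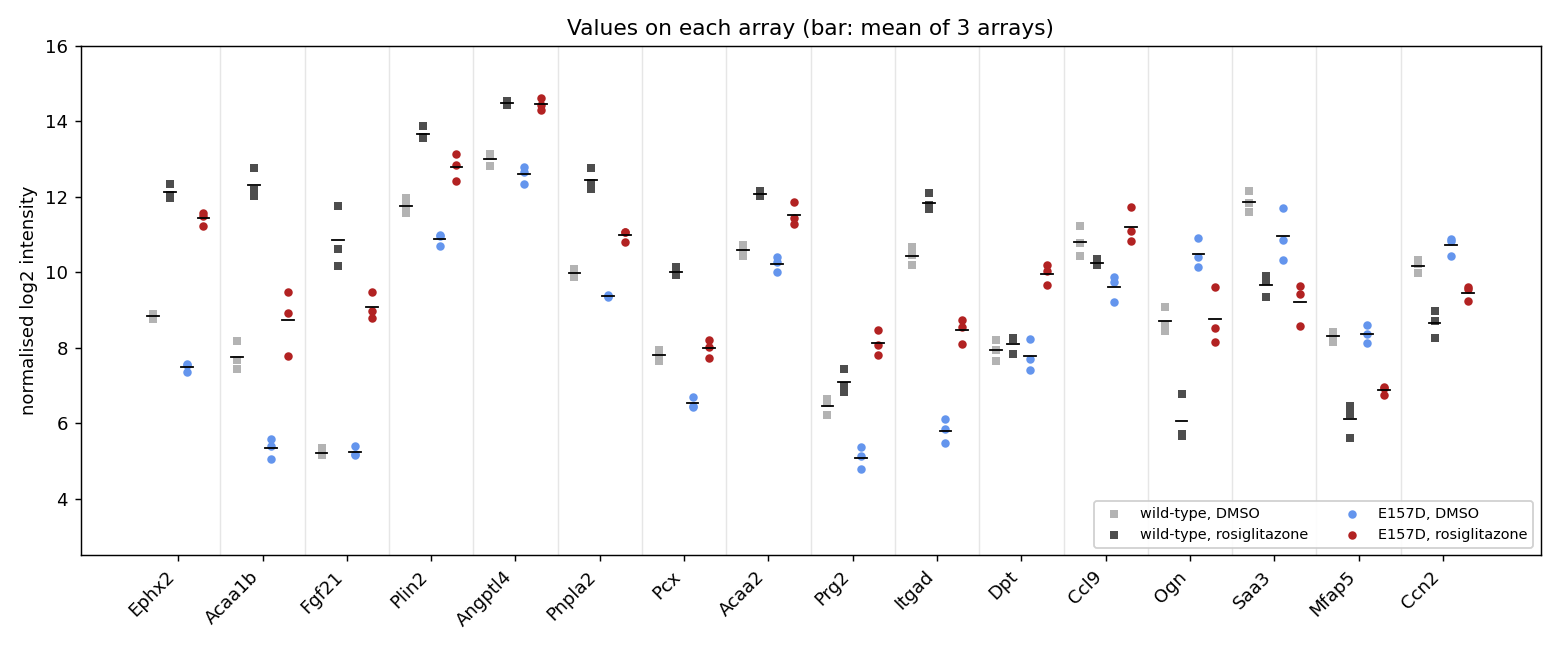
Normalised log2 intensity of 16 genes on each of the 12 arrays, squares for the wild-type and circles for the E157D receptor, with bars at the mean of 3 arrays. The E157D rosiglitazone arrays of the first 12 genes lie above the E157D DMSO arrays and those of the last 4 below, and Fgf21 in DMSO lies near the detection floor of 5.35 to 5.46.

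Of 13 genes of triglyceride synthesis 2 rose and 0 fell. Dgat2, which adds the last fatty acid, rose by 1.23 ± 0.28 and Gpat3, which adds the first, by 1.08 ± 0.18. The call of Dgat2 ended with any array left out except rosiglitazone 2 (adjusted p up to 0.118), and that of Gpat3 with the background left uncorrected or with the authors' processed values (adjusted p up to 0.0956). It was detected on 1 of 3 DMSO arrays. A dimmer second probe of Gpat3 changed by 0.62 and was not called. Of 13 thioesterases and acyl-CoA synthetases 3 rose. Acsbg1, a synthetase known from brain and steroid-making tissue, went from 6.10, 5.70 and 5.86 to between 7.85 and 8.01 on the rosiglitazone arrays, clear of overlap, a change of 2.06 ± 0.13 (adjusted p = 1.51e-05). The thioesterase Acot7 rose by 0.51 ± 0.09, a call that ended in a fit of the 6 E157D arrays alone (adjusted p = 0.0514).

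In the uptake and transport of fatty acids 2 of 12 genes rose. Angptl4, a secreted inhibitor of lipoprotein lipase and a known PPAR target, stood at 12.79, 12.66 and 12.33 in DMSO and 14.63, 14.29 and 14.44 with rosiglitazone, with a gap between the groups, and rose by 1.86 ± 0.14 (adjusted p = 4.96e-05). A dimmer second probe of Angptl4 rose by 1.05 ± 0.23. Dbi, which carries acyl-CoA, rose by 0.52 ± 0.13, with its call lost with any array left out except rosiglitazone 2 (adjusted p up to 0.146). Lpl, the lipoprotein lipase itself, changed by 0.16 ± 0.09 (adjusted p = 0.415). Rbp7, a retinol carrier of fat tissue and its vessels, was below detection in DMSO (4.66, 4.91 and 5.23) and at 7.83, 6.68 and 7.11 with rosiglitazone, at least 3.42-fold higher.

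Of 8 measured adipocyte markers only Adipoq and Cidec rose, and their median change of 0.22 came to 0.0056 with undetected groups at the floor. Adipoq, the hormone adiponectin, was below detection in DMSO (4.94, 4.79 and 4.90) and detected on each rosiglitazone array at 6.13, 6.55 and 6.14. It was at least 1.79-fold higher (adjusted p = 0.000317), and its level remained low. Fabp4, the fatty acid carrier of fat cells, and Plin1 were below detection on all 6 arrays, as were Retn and Cebpa. The summed level of the 8 markers ran from 4748 to 5054 in DMSO and from 4866 to 5174 with rosiglitazone on a linear scale, so the groups overlapped. Of the 8, only the receptor genes Adipor1 and Adipor2 were detected on all 6 arrays, so the sum can hide changes of the others. Of 18 transcription factors that promote or hold back fat cell formation 3 rose and 0 fell. Klf5, which promotes it, went from 8.11, 8.21 and 8.15 to 9.50, 8.94 and 9.36, a rise of 1.11 ± 0.15, and Klf4, which acts early in it, from 7.07, 7.35 and 7.41 to 8.02, 8.45 and 8.10, a rise of 0.91 ± 0.16. In both genes the lowest rosiglitazone array was above the highest DMSO array. The 2 dimmer probes of Klf4 changed by 0.41 and 0.69 and were not called. Ebf1 rose by 0.57 ± 0.14, a call that ended whichever array was left out (adjusted p up to 0.137).

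**Figure D3:**
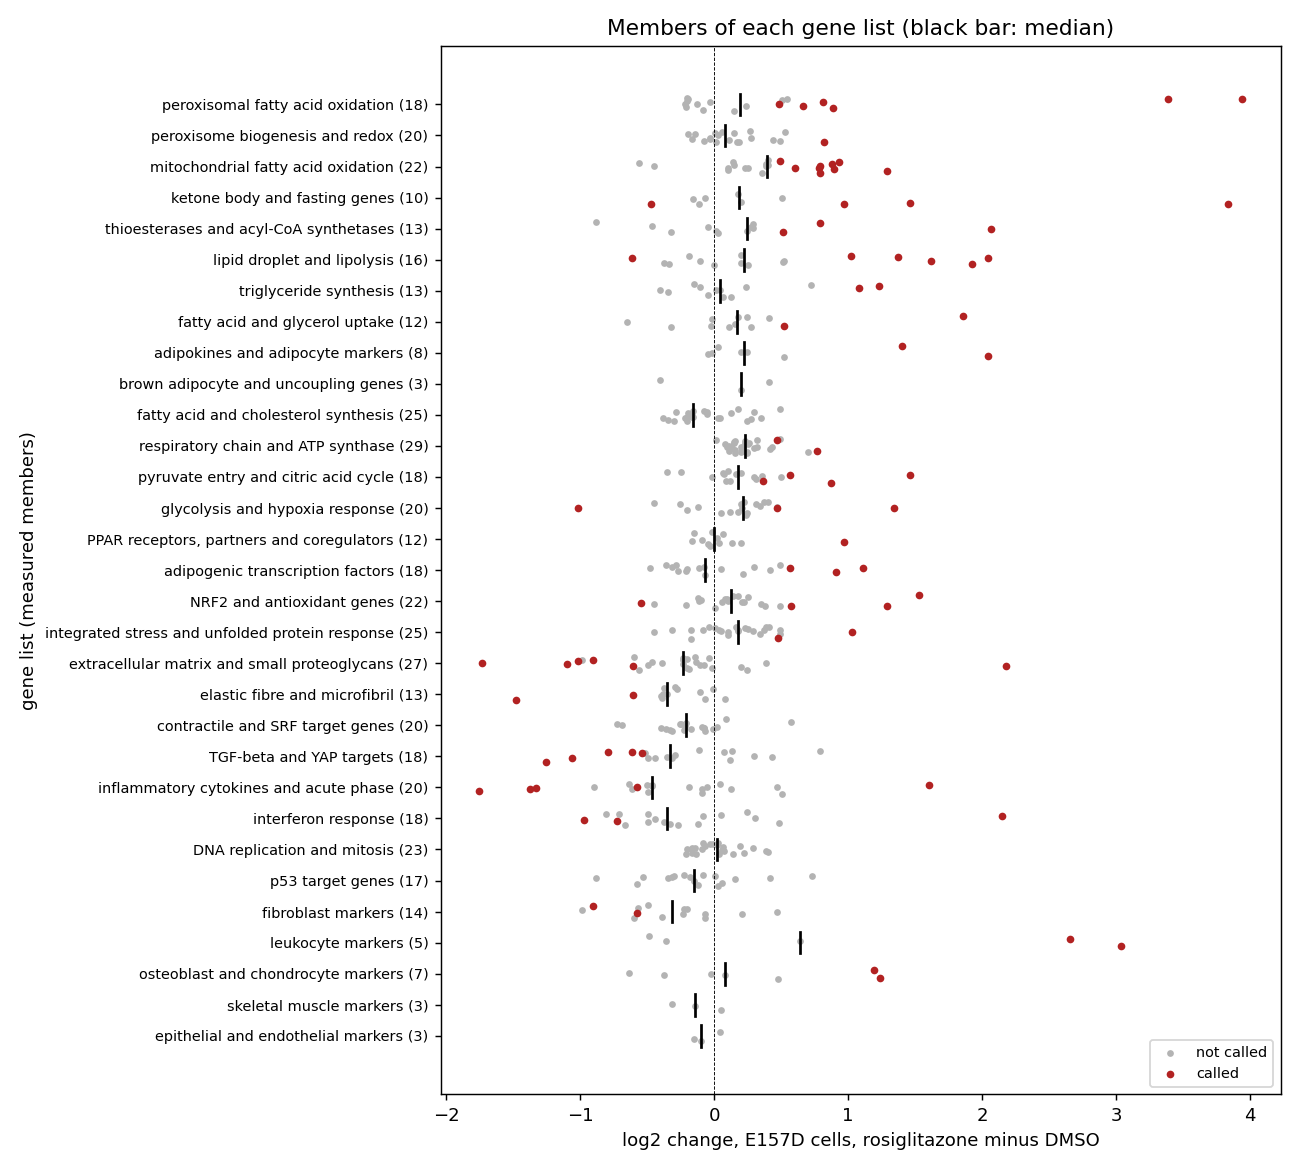
Log2 change in E157D cells (rosiglitazone minus DMSO) of every measured member of 31 gene lists, with the number of members in brackets, called members in red and a black bar at the list's median. Called members of the lists of fat oxidation and storage lie to the right with 1 exception and those of TGF-beta and YAP targets to the left, while the lists of fatty acid and cholesterol synthesis and of DNA replication hold no called member.

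Of 22 NRF2 and antioxidant genes 3 rose and 1 fell. Aldh3a1, an aldehyde dehydrogenase, rose from 8.74, 8.18 and 8.56 to 10.54, 9.72 and 9.82, a change of 1.53 ± 0.22 without overlap. Hmox1, which degrades haem, rose by 1.29 ± 0.28, and its second DMSO array lay at 9.19 against 7.92 and 8.20 on the others. Gclm, of glutathione synthesis, rose by 0.57 ± 0.12 and Gstm2 fell by 0.55 (SE 0.13). These 3 calls ended without DMSO 1 or 3 or rosiglitazone 1 or 3 for Hmox1 (adjusted p up to 0.106), DMSO 2 or 3 or rosiglitazone 1 or 2 for Gclm (up to 0.098), and any array except rosiglitazone 2 for Gstm2 (up to 0.15). Gstm2 belongs to a family of close copies that the probe may not separate. Of 25 genes of the integrated stress and unfolded protein responses 2 rose (8.0%, against 4.1% of all features called). Nupr1, a stress-induced nuclear protein, rose by 1.03 ± 0.14 with groups apart (10.57, 10.54 and 10.35 against 11.57, 11.54 and 11.42), and Trib3 rose by 0.47 ± 0.11, a call that only a fit without DMSO 3 kept among those that left out 1 array (adjusted p up to 0.126).

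Of 27 measured genes of the extracellular matrix 5 fell and 1 rose, with a median of -0.23 and 4 positive changes. Ogn, a small leucine-rich proteoglycan, stood at 10.14, 10.91 and 10.42 in DMSO and at 8.14, 9.60 and 8.53 with rosiglitazone, a change of -1.73 (SE 0.38) with rosiglitazone array 2 nearest to the DMSO arrays. Prelp, a proteoglycan of basement membranes, went from 9.70, 10.31 and 10.11 to 8.60, 9.31 and 8.92, a change of -1.10 (SE 0.18). Col8a1, a short-chain collagen, fell by 1.02 (SE 0.21), Fn1, fibronectin, fell by 0.91 (SE 0.22) and Lox, which cross-links collagen and elastin, fell by 0.60 (SE 0.15). Dimmer further probes of Fn1 changed by -0.65, -0.64 and -1.05 and were not called. With single arrays left out the list had 1 to 3 members called lower, with 1 when DMSO 2 was left out and 2 without DMSO 1 or 3 or rosiglitazone 1 or 3. The call of Ogn ended without DMSO 2 or 3 or rosiglitazone 1 or 3 (adjusted p up to 0.11), that of Col8a1 without DMSO 1 or 2 (up to 0.0699), and those of Fn1 and Lox whichever array was left out (up to 0.167 and 0.164). The 1 matrix gene that rose was Dpt, dermatopontin, at 7.42, 8.24 and 7.69 in DMSO and 10.19, 10.03 and 9.66 with rosiglitazone, a change of 2.18 ± 0.22 with the groups well apart (adjusted p = 0.000238).

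Elastic fibres and their microfibrils had 2 of 13 genes lower, Lox and Mfap5, and a median of -0.36. Mfap5, a microfibril protein, went from 8.13, 8.59 and 8.36 to 6.76, 6.94 and 6.96, a change of -1.48 (SE 0.19, adjusted p = 0.00136), and was the 1 member called whichever array was left out. Of 14 fibroblast markers 2 fell, Fn1 and Thy1, and the summed level of all 14 ran from 93240 to 97530 in DMSO and from 64410 to 77880 with rosiglitazone. Thy1, a surface glycoprotein, fell by 0.57 (SE 0.11), a call that ended without DMSO 1 or 3 or rosiglitazone 1 (adjusted p up to 0.0676). With arrays scaled to the median of all probes, 0 of the 14 were called and the median was -0.19 against -0.31.

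Of 18 targets of TGF-beta and YAP, signals of matrix and tension, 5 fell and 0 rose, with a median of -0.33. Ccn2, a matricellular growth factor, stood at 10.43, 10.89 and 10.83 in DMSO and at 9.23, 9.60 and 9.55 with rosiglitazone, a change of -1.26 (SE 0.19), and its second probe changed by -1.24 (SE 0.21). Ankrd1, a nuclear target of YAP, went from 9.33, 9.81 and 9.35 to 8.44, 8.56 and 8.31, a change of -1.06 (SE 0.17). In both genes the groups did not overlap. Tgfbi fell by 0.79 (SE 0.14), the ligand Tgfb3 fell by 0.62 (SE 0.15) and the kinase Nuak2 fell by 0.54 (SE 0.14). The calls ended for Nuak2 whichever array was left out (adjusted p up to 0.175), for Tgfb3 with any array left out except rosiglitazone 3 (up to 0.143), and for Tgfbi with arrays scaled to the median of all probes (0.0644). The list had 3 or 4 members called lower with single arrays left out, and 2 with that scaling. Of 20 contractile and SRF target genes 0 were called in limma, 6 had an unadjusted p under 0.05, and the median was -0.21.

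Secreted antagonists of BMP and Wnt signals, a list chosen after the values were seen, had 4 of 11 members lower. Nbl1, which binds BMPs, stood at 9.96, 9.83 and 9.78 in DMSO and at 8.71, 8.78 and 8.48 with rosiglitazone, a change of -1.20 (SE 0.12, adjusted p = 0.000238) with tight groups. Dkk3 fell by 1.10 (SE 0.21), the BMP antagonist Chrd fell by 1.05 (SE 0.18) and the Wnt antagonist Sfrp1 fell by 0.70 (SE 0.17). The call of Dkk3 ended without DMSO 2 or 3 or rosiglitazone 1 (adjusted p up to 0.0664) and that of Sfrp1 whichever array was left out (up to 0.161).

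Of 20 inflammatory cytokines and acute phase genes 4 fell and 1 rose. Saa3, an acute phase apolipoprotein, stood at 11.71, 10.85 and 10.33 in DMSO and at 9.63, 9.41 and 8.58 with rosiglitazone, a change of -1.75 (SE 0.34) in which both groups were spread but did not overlap. Tnfrsf11b, osteoprotegerin, a decoy receptor that blocks the formation of osteoclasts, went from 9.99, 9.81 and 9.89 to 8.59, 8.43 and 8.54, a change of -1.38 (SE 0.12, adjusted p = 0.000105) with tight groups. Il33, an alarm cytokine, fell by 1.33 (SE 0.32) and Csf1, the macrophage growth factor, fell by 0.57 (SE 0.12). The chemokine Ccl9 rose by 1.61 ± 0.25, from 9.86, 9.74 and 9.21 to 11.72, 11.10 and 10.82. Without rosiglitazone 3 only 1 member was called lower and without any other array 2 or 3. The calls ended for Saa3 without rosiglitazone 3 (adjusted p = 0.0534), for Il33 without DMSO 1 or 3 or rosiglitazone 2 or 3 (up to 0.141) and for Csf1 whichever array was left out (up to 0.0965).

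In the interferon response 2 of 18 genes fell and 1 rose. Gbp2, an interferon-induced GTPase, went from 10.45, 10.41 and 10.43 to 9.18, 9.64 and 9.55, a change of -0.97 (SE 0.14), and Irf9, a subunit of the interferon-activated transcription factor, fell by 0.73 (SE 0.11). Ubd, a ubiquitin-like protein induced by cytokines, rose from 11.71, 11.45 and 10.92 to 13.53, 13.40 and 13.60, a change of 2.15 ± 0.17 with all rosiglitazone arrays above all DMSO arrays.

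Other large falls were those of the integrin-like protein Itgbl1 (-1.68, SE 0.33), the plasma copper oxidase Cp (-1.45, SE 0.34), Cemip, which takes part in the breakdown of hyaluronan (-1.37, SE 0.27), and the adhesion protein Kirrel3 (-1.36, SE 0.24). Alox5ap, a partner of 5-lipoxygenase in the making of leukotrienes, fell by 1.24 (SE 0.22), the intermediate filament protein Synm fell by 1.21 (SE 0.19), the receptor P2ry14 fell by 1.20 (SE 0.19) and the protease inhibitor Slpi fell by 1.16 (SE 0.24). The calls ended for Itgbl1 and Cemip without DMSO 2 or rosiglitazone 1 or 3 (adjusted p up to 0.0716 and 0.0663), for Cp without DMSO 1 or 2 or rosiglitazone 2 or 3 (up to 0.122) and for Slpi without DMSO 1 or 3 or rosiglitazone 2 or 3 (up to 0.0778). Kirrel3, Alox5ap, Synm and P2ry14 stayed called under each alternative run that tested them. Their changes shrank to -0.50, -0.55, -0.38 and -0.47 in the setting where each was smallest. Dimmer further probes of Synm changed by -0.47 and -0.43 and were not called, while those of Alox5ap (-0.98) and P2ry14 (-1.49) were called.

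Of 5 measured leukocyte markers 2 rose with rosiglitazone, and 3 had a positive change. Tpsab1, also 1 of the 5, was detected on 0 DMSO and 3 rosiglitazone arrays and was not called. The E157D response was called greater than that with the wild-type receptor for 2 of the 5 and lesser for 1. Prg2, a granule protein of eosinophils, was below detection in DMSO (5.36, 5.12 and 4.78) and at 8.46, 8.08 and 7.81 with rosiglitazone, at least 6.44-fold higher (adjusted p = 2.87e-05). Itgad, an integrin subunit of macrophages and other leukocytes, rose from 5.84, 5.46 and 6.10 to 8.54, 8.09 and 8.74, a change of 2.66 ± 0.21. With other settings of the processing it went as low as 1.23. A second Itgad probe rose by 3.46 ± 0.21, while 2 further probes with dim signal changed by 0.48 and 0.36 and were not called. The summed level of the 5 markers was 263.5 to 390.6 in DMSO and 734.5 to 936.5 with rosiglitazone. Of the 16 leukocyte markers with a probe, 10 were below detection on all 6 E157D arrays, among them Ptprc, which marks nearly all leukocytes, Itgam, Adgre1, Cd3e, Tyrobp and Laptm5. Vsir, an immune checkpoint protein, was at least 4.32-fold higher, from 5.23, 4.86 and 5.45, below detection, to 7.80, 7.18 and 7.65.

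Osteoblast and chondrocyte markers had 2 of 7 higher, the osteocalcin genes Bglap (1.24 ± 0.10) and Bglap2 (1.20 ± 0.21). The 2 genes are near-identical, so a probe may pick up both and either value is uncertain. Bglap was detected on 1 DMSO array, 3 rosiglitazone arrays and 0 wild-type arrays. It reached the test only through its rosiglitazone arrays, and its rise was 0.36 in an alternative run, so it is given as a description. Bglap2 stood at 7.66, 7.61 and 7.73 in DMSO and at 8.78, 8.94 and 8.87 with rosiglitazone, with each group level and the groups apart. The summed level of the 7 markers ran from 9802 to 12140 in DMSO and from 8381 to 9307 with rosiglitazone. Of the 13 such markers with a probe, 5 were below detection on all 6 arrays (Sp7, Ibsp, Sost, Acan and Col10a1), while Phex and Sox9 were detected on all 6, Alpl on 2 DMSO and 3 rosiglitazone arrays and Col2a1 on 1 and 3. Skeletal muscle markers (0 of 3), epithelial and endothelial markers (0 of 3), brown adipocyte genes (0 of 3), p53 targets (0 of 17), DNA replication and mitosis (0 of 23) and the synthesis of fatty acids and cholesterol (0 of 25) had no called member in limma, with medians of -0.14, -0.10, 0.20, -0.15, 0.02 and -0.15 and with 0, 0, 1, 5, 1 and 5 members at an unadjusted p under 0.05. The part of other cell types in these results was not tested.

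The wild-type receptor gave a larger set of calls with the same drug, 3473 features or 26.7%, and the 2 responses share no arrays. Of the 300 features that rose with E157D, 202 also rose with the wild-type receptor, 91 were not called there and 7 fell. Of the 233 that fell, 207 also fell, 25 were not called and 1 rose. Over all 13006 features, 12.3% were called higher and 14.4% lower with the wild-type receptor. Being called with 1 receptor alone does not show a difference, so the difference of the responses was tested. It passed for 310 of the 13006 features (2.38%). The E157D response was the greater in 115 of them (0.884%) and the lesser in 195 (1.5%), and 73 were among the 533. In that group, 49 rose with E157D and rose more than with the wild-type receptor, and 20 rose but less. These 73 had been chosen for their E157D change, which is also part of the difference. The choice tilts their split towards greater E157D responses, so it does not describe the features as a whole. Plin2 rose by 1.93 and 1.91 and the difference was not called (adjusted p = 0.982), nor was it for Angptl4 (1.86 and 1.48), Acaa2 (1.29 and 1.48), Etfb (0.79 and 0.86), Ech1 (0.89 and 0.79) or Hadhb (0.93 and 1.34), where the first value is that with E157D. The difference of the changes (E157D minus wild-type) was 0.02 ± 0.25 for Plin2 and 0.67 ± 0.18 for Ephx2 (adjusted p = 0.0783), and a missed threshold does not show that the receptors act alike.

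The response was lower with E157D for 3 of 16 lipid droplet genes, 3 of 13 genes of triglyceride synthesis and 4 of 8 adipocyte markers, lists that share members, and higher for 0 in each. Lower responses were not limited to these lists. They were called for 5 of 18 genes of pyruvate entry and the citric acid cycle and 4 of 22 of mitochondrial fatty acid oxidation. The same held for 3 of 12 genes of fatty acid and glycerol uptake and 5 of 25 of the stress responses, again with 0 higher in each. Of all 13006 features 1.5% had a lower response with E157D by the same test. Plin1 is counted among the adipocyte markers with a lower response but was below detection on every E157D array, so its E157D change has no measured level behind it. It passed the detection filter only through the wild-type rosiglitazone arrays. Fabp4, also 1 of the 8 markers, was below detection on every E157D array too and passed the filter only through wild-type arrays. Cidec, below detection in DMSO with both receptors, was at least 2.35-fold higher with E157D and at least 24.3-fold higher with the wild-type receptor (adjusted p of the difference 0.00013). Gpat3 rose by 1.08 against 3.57 with the wild-type receptor (0.000369). Adipoq was at least 1.79-fold higher with E157D and with the wild-type receptor its log2 level rose by 3.34 (0.000505). Sh3tc1, below detection in E157D DMSO, was at least 1.17-fold higher with E157D and with the wild-type receptor its log2 level rose by 2.61. Smaller rises with E157D were also measured for Treml1 (0.64 against 2.35), Trib3 (0.47 against 2.14), Egln3 (0.47 against 2.10), Cbr3 (0.71 against 2.19), Acot2 (0.79 against 2.24), Reep6 (0.93 against 2.33), Rgs17 (0.82 against 2.19), Idh3a (0.87 against 1.99) and Pex16 (0.82 against 1.91), each with a called difference. All these differences stayed called when any 1 of the 12 arrays was left out. The E157D calls themselves ended for Cbr3 without DMSO 2 or 3 or rosiglitazone 1 or 3 (adjusted p up to 0.0869), for Rgs17 without DMSO 1 or 3 or rosiglitazone 1 or 2 (up to 0.0965), and for Sh3tc1 with no background correction or the authors' processed values (up to 0.155). Aplp2, a relative of the amyloid precursor protein, went the opposite way: it fell from 11.94, 11.84 and 12.11 to 11.05, 11.18 and 11.24 with E157D, by 0.81 (SE 0.12), and rose by 1.08 ± 0.12 with the wild-type receptor (adjusted p of the difference 0.000132). A dimmer second probe of Aplp2 changed by -0.33 with E157D and was not called. Dimmer second probes of Reep6 (0.27) and Rgs17 (0.79) were not called with E157D either, while those of Cbr3 (0.88) and Idh3a (1.07) were.

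**Figure D4:**
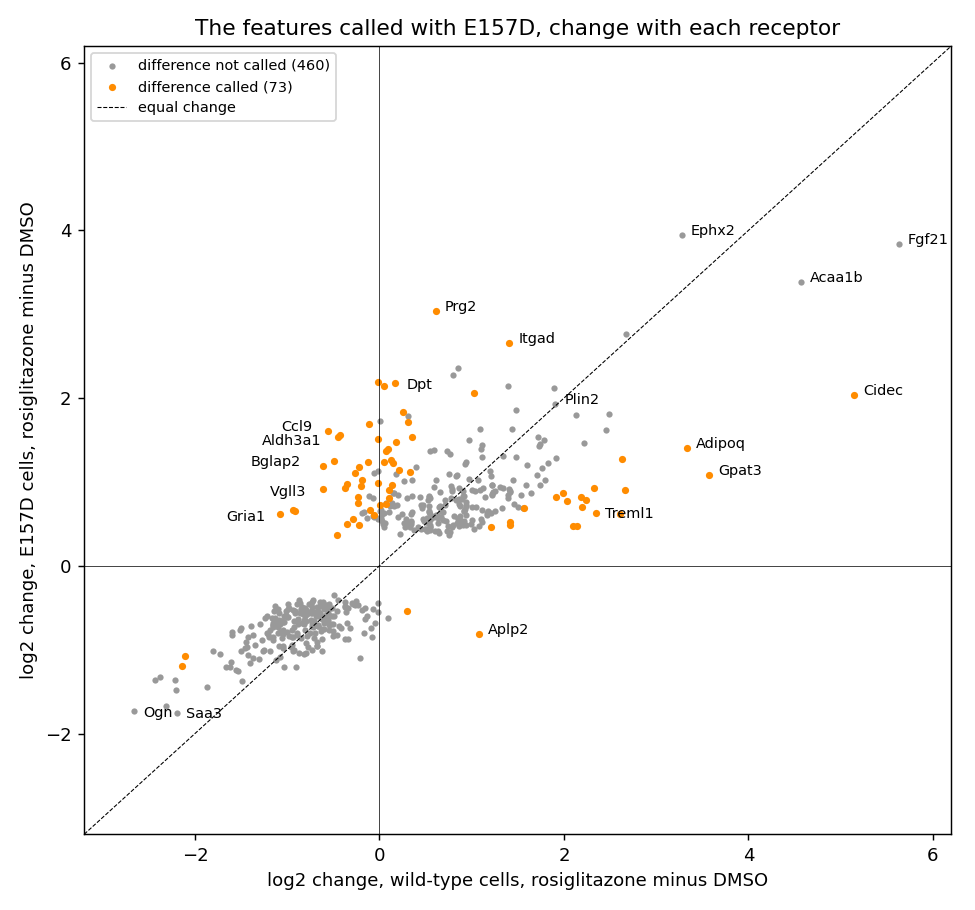
Log2 change with the wild-type receptor (horizontal) and with E157D (vertical) of the 533 features called with E157D, which share no arrays between the axes. The 73 orange points passed the test of the difference, the dashed line marks equal change, and Cidec, Adipoq and Gpat3 lie below it while Prg2, Dpt and Ccl9 lie above; each point is off 0 on the vertical axis because it was chosen for its E157D change, and fitted changes of genes below detection in a group, such as Cidec and Prg2, are not measured sizes.

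Among the genes that rose more with E157D, Prg2 was at least 6.44-fold higher with E157D and with the wild-type receptor its log2 level changed by 0.61 (adjusted p of the difference 0.00137). In DMSO its level was lower in E157D than in wild-type cells, with means of 5.08 and 6.47. Dpt rose by 2.18 against 0.17 (difference 2.00 ± 0.31), Ccl9 by 1.61 against -0.55, Aldh3a1 by 1.53 against -0.45, Ccdc3, a secreted protein of fat and vessel cells, by 1.56 against -0.43, and Sncg, γ-synuclein, which is also expressed in fat cells, by 1.69 against -0.11. The transcription factors Klf5 (1.11 against -0.27) and Klf4 (0.91 against -0.62) differed too, as did Acsbg1 (2.06 against 1.02). The calls of these differences stood when any 1 of the 12 arrays was left out. Eps8l2, an actin regulator, was detected on the E157D rosiglitazone arrays only and entered the test through them, so its at least 2.19-fold rise is given as a description.

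A further 3 genes rose with E157D and fell with the wild-type receptor. Vgll3, a cofactor of TEAD factors that holds back fat cell formation, stood at 9.59, 9.73 and 9.59 in DMSO and at 10.41, 10.17 and 10.31 with rosiglitazone in E157D cells, a rise of 0.66 ± 0.12, and changed by -0.92 ± 0.12 with the wild-type receptor. Gria1, a glutamate receptor subunit, changed by 0.62 against -1.08 and Apol9a by 0.66 against -0.94, though the E157D calls of both ended with any array left out except rosiglitazone 2 (adjusted p up to 0.124 and 0.115). The call of the difference ended for some named genes with single arrays left out. It was lost for Itgad and Abcb4 with any of 10 of the 12 arrays left out (adjusted p up to 0.107 and 0.103), for Cycs with any of 8 (up to 0.0831), for Map2, a protein that binds microtubules, with any of 7 (up to 0.0694) and for Acox3 with any of 6 (up to 0.0601). That of Itgad was also lost under 5 other settings (same-median scaling, no background correction, the authors' processed values, no detection filter and all probes tested, adjusted p up to 0.893) and that of Abcb4 under 3 (no background correction, the authors' processed values and no detection filter, up to 0.0694). Itgad started from a lower level in E157D cells (a mean of 5.80 in DMSO against 10.44 with the wild-type receptor) and Abcb4, a phospholipid exporter, was detected on the E157D rosiglitazone arrays only.

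Just inside the threshold lay Pcdh7 with an adjusted p of 0.0494 and a change of -0.58 and Tmem97 with 0.0498 and 0.59. Just outside lay Ccdc86 with 0.0501 and 0.37 and Vamp5 with 0.0508 and 0.74. Of 533 called features, 212 had further kept probes, 299 in all, of which 102 were called in the same direction, 0 in the opposite one, and 21 features had a further probe of opposite sign.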

How the data were processed

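RNA of NIH-3T3 cells was hybridised to 1-colour Illumina bead arrays. The raw table deposited by the authors holds bead intensity with no normalisation between arrays, per the file headers. The detection p-value beside each intensity is, per the file headers, the authors' own and moves in steps of 1 in 936. A second deposited table of the authors holds processed intensity on a linear scale, and its method and centring are not stated. The raw medians of the 6 E157D arrays ran from 167 to 186.

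Intensities were corrected and normalised with neqc of limma 3.58.1 in R 4.3.3, which infers the negative controls from the detection p-values, adds an offset of 16, applies quantile normalisation and takes log2. A probe was kept if 3 or more of 12 arrays detected it (p under 0.05), and of several probes of a gene the one with the highest mean was used. The platform annotation gave 34885 probes 1 symbol, 18 several and 10378 none, and 34807 matched RefSeq. The 4 groups were fitted together with 8 residual degrees of freedom, and a feature was called at a Benjamini-Hochberg adjusted p under 0.05 over all 13006. Where a group was below detection on all its arrays, a fold is a lower bound against the lowest detected level. Alternatives were other scalings, no background correction, the authors' processed values, other filters, all probes, array weights, a replicate block and single arrays left out.

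The text names part of the 15 largest rises and falls, up to 5 called members of each list, up to 12 differences between receptors a direction, features at the threshold and fixed genes. Further members and all genes in the other observations were named after their values were seen. The gene lists and members were chosen with earlier results of these data known.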

Additional observations from a re-analysis of the deposited data

Results flagged for a closer look

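The responses to rosiglitazone with the E157D and the wild-type receptor differed for 310 of 13006 features by limma's test of the difference at an adjusted p under 0.05, n = 3 arrays a group. Values here are the fitted log2 change with E157D minus that with the wild-type receptor. For Cidec, Plin1, Sh3tc1, Adipoq, Bglap, Bglap2, Eps8l2, Abcb4 and Prg2, which were below detection on all arrays of at least 1 group, they are not measured sizes, and Eps8l2 and Abcb4 were detected with E157D and rosiglitazone only.

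Among named genes with a lower response in E157D, the difference was -3.11 for Cidec, -2.94 for Plin1, -2.49 for Gpat3, -1.98 for Sh3tc1, -1.94 for Adipoq and -1.88 for Aplp2. It was -1.71 for Treml1, -1.67 for Trib3, -1.63 for Egln3, -1.49 for Cbr3, -1.45 for Acot2 and -1.40 for Reep6. Next came -1.37 for Rgs17, -1.26 for Cycs, -1.12 for Idh3a, -1.10 for Pex16, -0.99 for Lpl and -0.74 for Cyc1. Plin1 was below detection on all 6 E157D arrays, so its E157D change has no measured level behind it, and Lpl was not called with E157D. The call of the difference ended for Cycs with any of 8 of 12 arrays left out (adjusted p up to 0.0831), and for Cyc1 with arrays scaled to the median of all probes (adjusted p = 0.0974).

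Among genes with a higher response in E157D, the difference was 0.70 for Acox3, 1.01 for Map2, 1.04 for Acsbg1, 1.25 for Itgad, 1.36 for Bglap and 1.38 for Klf5. A further set had differences of 1.53 for Klf4, 1.57 for Eps8l2, 1.57 for Vgll3, 1.60 for Apol9a, 1.70 for Gria1 and 1.80 for Sncg. A further set had differences of 1.81 for Bglap2, 1.98 for Aldh3a1, 1.99 for Ccdc3, 2.00 for Dpt, 2.09 for Abcb4 and 2.16 for Ccl9. The difference was 2.42 for Prg2. The call ended for Itgad with any of 10 of 12 arrays left out and under 5 other settings (adjusted p up to 0.893), for Abcb4 with any of 10 and under 3 other settings (up to 0.103), and for Acox3 with any of 6 (up to 0.0601) and with arrays scaled to the median of all probes (0.109). Map2 rose by 0.99 ± 0.15 with E157D, and the call of its difference ended with 7 of 12 arrays left out in turn (adjusted p up to 0.0694).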

How the results depend on the processing

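The count of 533 features called with E157D became 931 with no background correction and 843 with the authors' processed values. It became 820 with a replicate block, of which 525 were among the 533. With single E157D arrays left out it ran from 243 to 442. The 310 features with a different response between receptors became 194 with arrays scaled to the median of all probes, 667 with no background correction, 672 with the authors' processed values and 471 with a replicate block, and ran from 180 to 306 with single arrays left out. The cause of these shifts was not tested. The other alternatives stayed within 1.5 times of either count. Deviations of same-numbered E157D arrays from their group means correlated at 0.2521, 0.1317 and 0.0422, and those of different-numbered arrays at -0.1799 to 0.073. The main fit did not take the numbers as pairs, and whether they mark shared experiments was not tested. Of 117 called genes named in the text, 62 kept the call in every alternative run that tested them. The call was lost by 50 with at least 1 array left out and by 41 under another setting, and 0 changed direction. The run limited to probes detected on all 12 arrays tested 104 of 126 named genes, called or not. Genes below detection in a group were not tried there. The size of some large changes also moved with the setting, down to 1.57 for Acaa1b, 1.23 for Itgad and 0.88 for Acsbg1. The brighter Plin2 and Angptl4 stayed at 1.83 or above. The 3 arrays a group and the dim signal of genes near the detection floor limit the precision.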

Other observations

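Some further genes called higher in E157D cells are described here, picked because they had risen and not from a list, so they stand for no gene group. Rrp12, which takes part in the maturation of ribosomal subunits, stood at 9.80, 9.50 and 9.60 in DMSO and at 10.70, 10.33 and 10.41 with rosiglitazone, a rise of 0.85 ± 0.14. The helicase Ddx21 rose by 0.73 ± 0.12 and Tcof1, which aids the transcription of ribosomal RNA, by 0.75 ± 0.15. Cluh, which binds messages of mitochondrial proteins, rose by 0.73 ± 0.15, the mitochondrial DNA polymerase Polg by 0.65 ± 0.15 and Lrpprc, which stabilises mitochondrial messages, by 0.53 ± 0.12. The calls ended for Tcof1 without DMSO 1 or 3 or rosiglitazone 1 (adjusted p up to 0.0687), for Cluh without DMSO 1 or 2 or rosiglitazone 1 or 3 (up to 0.0753), for Polg with any array left out except rosiglitazone 2 (up to 0.128) and for Lrpprc with any array left out except DMSO 1 (up to 0.102).

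Of 9 measured semaphorins, a list also chosen after the values were seen, 2 rose and 1 fell. Sema7a was at 6.06, 6.14 and 5.38 in DMSO and at 8.27, 7.18 and 7.48 with rosiglitazone, a rise of 1.79 ± 0.30 without overlap. Sema5a rose by 1.09 ± 0.23 and Sema3f fell by 0.84 (SE 0.14). Dimmer probes of Sema5a changed by 1.15 (called) and 0.04 (not called). The hormone Cck rose from 7.62, 6.92 and 7.54 to 9.14, 9.04 and 9.09, by 1.73 ± 0.37. The nuclear receptor Esrrg was below detection in DMSO and at least 1.42-fold higher, and the vitamin D receptor Vdr fell by 0.70 (SE 0.14). The calls ended for Sema5a without DMSO 1 or 3 or rosiglitazone 1 or 3 (adjusted p up to 0.0905), for Cck with any array left out except DMSO 1 (up to 0.0933), for Esrrg without DMSO 1 or 2 or rosiglitazone 3 (up to 0.0715) and for Vdr without DMSO 1 or 3 or rosiglitazone 1 (up to 0.0534).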
